A study of Mus musculus with 12 samples.

Results

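The 10 genes described here encode proteins of the acrosome and of sperm-egg fusion: Acr, Acrbp, Acrv1, Zpbp, Zpbp2, Spaca1, Spaca3, Izumo1, Spam1 and Dpy19l2. They were chosen by symbol from what the proteins are known to do, with earlier results of these data known. Each was found in a table of testis RNA sequencing through its NCBI Gene ID. They are 10 of 22221 rows, and all 10 passed the filter on low values that left 15472 rows for testing. Total RNA came from testes of ICR mice, an outbred stock, in 12 libraries that form 4 groups of 3. The IMA10 group had received busulfan and then gut microbiota of donor mice that had been given alginate oligosaccharide at 10 mg/kg body weight. The IMC group had received busulfan and then gut microbiota of donors that had been given ddH2O. The Sa group had received busulfan and then saline, and the Con group no treatment. Busulfan, an alkylating drug that depletes dividing germ cells, was given as 1 dose at 3 weeks of age, the microbiota followed for 2 weeks, and testes were taken after another 3 weeks. The age of the untreated mice and whether animals were pooled are not stated, and the submitters' text speaks of cultured testis without naming a culture step.

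The acrosome is a secretory vesicle that spermatids build from the Golgi apparatus and spread as a cap over the front of the nucleus. It holds proteases, hyaluronidase and a protein matrix, and its exocytosis lets a sperm pass the egg coat and exposes the fusion protein IZUMO1 to its egg receptor JUNO. Transcription of acrosome genes begins in late meiotic spermatocytes for some and in haploid round spermatids for others, so their level in whole testis follows how many of these cells are present and how much RNA each holds. In these bulk samples fewer cells of a type and less RNA per cell cannot be told apart.

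IMA10 replicate 3 stood apart from the other busulfan libraries. The summed FPKM, a fragment count normalised to transcript length and to the mapped total, of the 10 genes came to 2.23%, 7.14% and 91.3% of the Con mean in IMA10 replicates 1, 2 and 3. In IMC it came to 21.9%, 23.2% and 8.59%, and in Sa to 26.1%, 19.2% and 15.2%. Across all tested genes, IMA10 replicate 3 had a Pearson r of 0.918 to 0.926 with the Con libraries, and of 0.606 and 0.705 with IMA10 replicates 1 and 2. Counts of the 10 genes and of each gene list that passed the test are therefore given with and without it. All 12 Sertoli cell markers, all 8 Leydig cell markers, all 8 macrophage markers, all 5 myoid markers and all 5 endothelial markers were called higher in Sa than in Con, with and without that library. Of all tested genes, 52.0% were called higher with it and 8583 of 15412 without it. Of the 3 epididymis markers in the table, none reached the filter. The summed FPKM of the Sertoli list was 2379 to 14065 in IMA10, 9337 to 11108 in IMC and 7357 to 9102 in Sa, against 428.6 to 510.0 in Con. The part of the somatic cells in the results below was not tested. Con columns are named with a different prefix from all others, so treatment and a possible batch cannot be told apart.

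In untreated testis the genes spanned a wide range of levels per transcript length. Acrbp was the most abundant at 495 ± 14.3 FPKM (SD, n = 3 here and below). It was followed by Zpbp2 at 201 ± 6.96 FPKM and Acr at 191 ± 5.16 FPKM, whose library values overlapped and which thus did not differ beyond their spread. The order then ran through Acrv1 (135 ± 5.33), Spaca3 (115 ± 4.23), Spaca1 (102 ± 7.35), Dpy19l2 (66.8 ± 4.03), Zpbp (54.7 ± 1.41), Izumo1 (41.7 ± 2.28) and Spam1 (30.0 ± 3.11 FPKM). None of the other neighbouring genes in this order had overlapping library values. The genes lie on chromosomes 4, 6, 7, 9, 11 and 15, with Zpbp, Zpbp2 and Spaca3 on 11, Acrbp and Spam1 on 6, and Acrv1 and Dpy19l2 on 9.

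Promoter sequence is shown because CREM, a transcriptional activator of spermatid genes, binds the cyclic AMP response element. The joint movement of the 10 genes is not particular to them. Over 12 libraries, 2247 of 7960 other genes had a Pearson r above 0.95 with their mean. Control of the 10 genes by CREM was not tested. RefSeq promoters (GRCm38.p6, 250 bases before to 50 after a start) were found for 9 of the 10 genes, all but Acr. The core TGACG, read on both strands, was present in 6 of 9, or 66.7%: Acrbp, Zpbp2, Spaca1, Spaca3, Izumo1 and Dpy19l2. It was present in 23.0% of the 27025 genes with a promoter in the table. The full element TGACGTCA, which contains the core on each strand, was present in Izumo1 alone, 96 bases before the start, and in 2.03% of all genes. TATAAA was found in none of the 9, against 15.7% of all genes, CCAAT in 2 (22.2%), against 41.1%, and AACTG, the core bound by MYB proteins, in 4 (44.4%), against 48.2%, each on both strands. The motifs were chosen after the sequences had been seen, and a match is a description of letters, not of binding. The 150 bases before the start of 3 genes with a match and 1 without are printed 5′ to 3′ on the gene's strand, with TGACG or TGACGTCA in capitals. They lie at chr7:45621661-45621810 (Izumo1, plus strand), chr4:34050066-34050215 (Spaca1, minus), chr6:125049777-125049926 (Acrbp, plus) and chr9:36693070-36693219 (Acrv1, plus).
Izumo1: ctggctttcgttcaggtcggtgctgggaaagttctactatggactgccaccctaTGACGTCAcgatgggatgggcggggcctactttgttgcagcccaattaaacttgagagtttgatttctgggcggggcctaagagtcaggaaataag
Spaca1: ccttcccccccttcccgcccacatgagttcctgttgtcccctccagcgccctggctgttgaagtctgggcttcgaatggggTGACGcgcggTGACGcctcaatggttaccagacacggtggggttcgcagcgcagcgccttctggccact
Acrbp: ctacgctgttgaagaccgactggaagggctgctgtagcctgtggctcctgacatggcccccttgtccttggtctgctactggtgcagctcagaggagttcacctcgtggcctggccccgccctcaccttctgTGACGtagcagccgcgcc
Acrv1: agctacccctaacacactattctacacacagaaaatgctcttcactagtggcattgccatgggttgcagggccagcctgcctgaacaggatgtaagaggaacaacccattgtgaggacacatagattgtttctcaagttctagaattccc

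Acr encodes acrosin, a trypsin-like protease stored as a zymogen, and Acrbp the protein that binds this zymogen and packs it into the acrosomal granule. Acr (Gene ID 11434) stood at 3.87, 12.4 and 190 FPKM in IMA10, 42.1, 50.04 and 17.1 FPKM in IMC, and 58.7, 39.6 and 34.9 FPKM in Sa, against 197, 188 and 189 FPKM in Con. Acrbp (54137) stood at 10.7, 38.8 and 521 FPKM in IMA10, 116, 138 and 47.1 FPKM in IMC, and 145, 104 and 84.1 FPKM in Sa, against 505, 478 and 501 FPKM in Con. Both genes were lower in every IMC and Sa library than in any Con library, and IMA10 replicate 3 alone of the busulfan libraries reached the Con level. The ratio of Acr to Acrbp stayed between 0.319 and 0.416 in all 12 libraries. It was 0.319 to 0.364 in IMA10, 0.364 in each IMC library and 0.382 to 0.416 in Sa, against 0.376 to 0.394 in Con.

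Zpbp and Zpbp2 encode paralogous proteins of the acrosomal matrix that were named for binding the zona pellucida, and loss of Zpbp in mice gives round-headed sperm. Zpbp (53604) stood at 2.31, 6.41 and 54.6 FPKM in IMA10, 14.9, 15.4 and 6.39 FPKM in IMC, and 17.2, 14.4 and 9.60 FPKM in Sa, against 53.3, 56.1 and 54.7 FPKM in Con. Zpbp2 (69376) stood at 4.32, 16.1 and 228 FPKM in IMA10, 60.3, 63.3 and 20.1 FPKM in IMC, and 63.0, 53.7 and 41.9 FPKM in Sa, against 194, 201 and 208 FPKM in Con. All IMC and Sa values lay below the Con range, while IMA10 replicate 3 lay within it for Zpbp and above it for Zpbp2. Zpbp spans a locus in the annotation that also holds Spata48 and 3 small non-coding or pseudogene entries, so reads may be shared and its values are uncertain to that extent. Spata48 stood at 0.83 to 17.4 FPKM in IMA10, 1.69 to 3.46 in IMC and 1.77 to 5.08 in Sa, against 46.9 to 50.2 in Con.

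Dpy19l2 encodes an inner nuclear membrane protein that anchors the acrosome to the nucleus, and its deletion in men is a known cause of round-headed sperm. It (320752) stood at 1.43, 6.12 and 75.3 FPKM in IMA10, 20.4, 19.4 and 6.69 FPKM in IMC, and 19.1, 18.8 and 10.4 FPKM in Sa, against 63.1, 66.3 and 71.1 FPKM in Con. IMA10 replicate 3 lay above every Con library and all the other busulfan libraries lay below them. The gene overlaps Cypt4 in the annotation, which stood at 1.61 to 98.8 FPKM in IMA10, 12.4 to 20.2 in IMC and 18.5 to 41.8 in Sa, against 373 to 402 in Con, so its values too are uncertain where reads are shared.

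Acrv1 encodes an antigen of the acrosomal vesicle, Spaca1 a membrane protein of the inner acrosomal membrane that is needed for acrosome shape in mice, and Spaca3 a lysozyme-like acrosomal protein. Acrv1 (11451) stood at 2.02, 6.56 and 77.0 FPKM in IMA10, 19.0, 12.6 and 6.99 FPKM in IMC, and 22.5, 13.0 and 11.1 FPKM in Sa, against 129, 139 and 137 FPKM in Con. Spaca1 (67652) stood at 5.23, 9.64 and 64.9 FPKM in IMA10, 18.0, 14.8 and 9.05 FPKM in IMC, and 19.2, 14.0 and 11.9 FPKM in Sa, against 95.1, 110 and 102 FPKM in Con. Spaca3 (75622) stood at 1.58, 3.94 and 60.8 FPKM in IMA10, 13.9, 12.6 and 7.10 FPKM in IMC, and 18.5, 10.5 and 9.93 FPKM in Sa, against 117, 118 and 110 FPKM in Con. For these 3 genes all 9 busulfan libraries, IMA10 replicate 3 included, lay below the Con range.

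Izumo1 encodes the sperm membrane protein that binds JUNO on the egg, and Spam1 the hyaluronidase PH-20 of the sperm surface and acrosome. Izumo1 (73456) was listed at 0 in IMA10 replicate 1 and stood at 0.50 and 17.8 FPKM in IMA10 replicates 2 and 3, at 3.72, 2.65 and 0.77 FPKM in IMC and at 5.5, 2.84 and 0.87 FPKM in Sa, against 39.6, 44.1 and 41.2 FPKM in Con. Spam1 (20690) stood at 0.48, 1.82 and 18.4 FPKM in IMA10, 5.5, 3.88 and 1.77 FPKM in IMC, and 4.92, 3.98 and 2.49 FPKM in Sa, against 26.9, 33.1 and 30.0 FPKM in Con. Neither gene reached the Con range in any busulfan library. Relative to its own Con mean, Izumo1 was the lowest of the 10 genes in each of the 9 busulfan libraries.

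**Figure D1:**
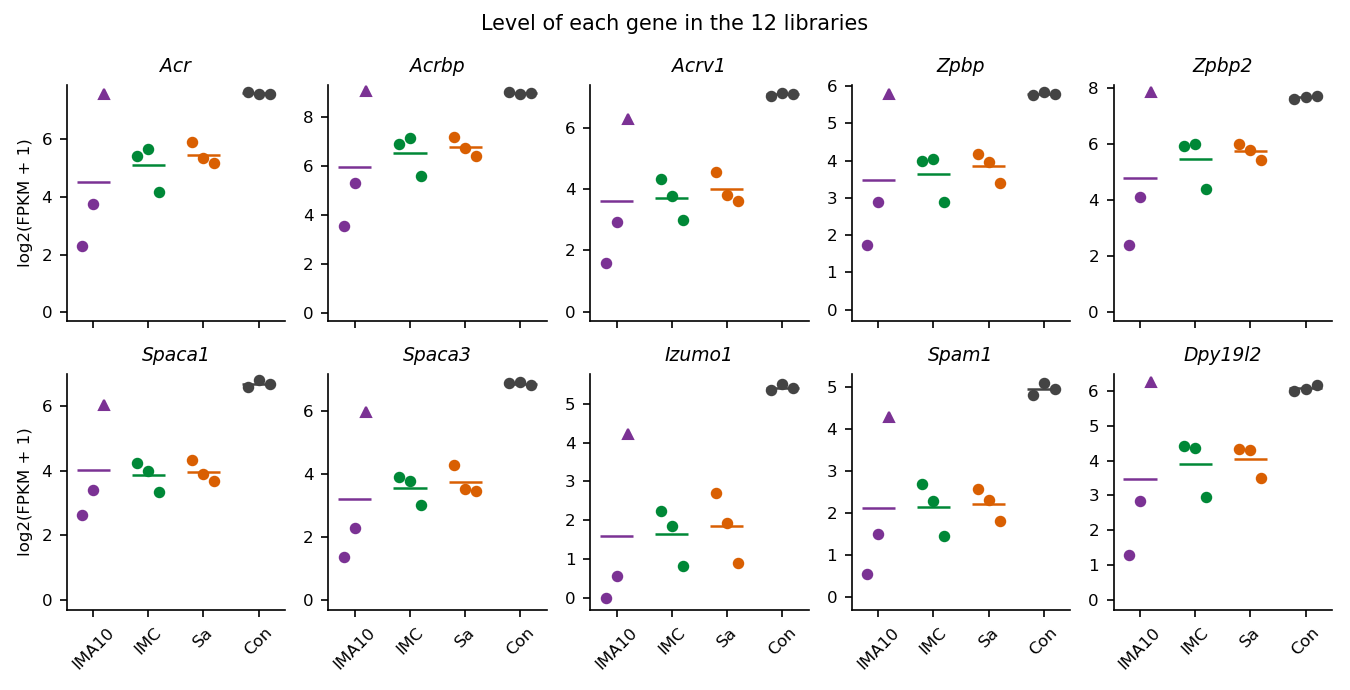
Level of each of the 10 genes as log2(FPKM + 1), with 1 point per library, a horizontal line at the group mean, and IMA10 replicate 3 as a triangle. The Sa and IMC points lie below all Con points for every gene, and the IMA10 triangle reaches or passes the Con points for Acr, Acrbp, Zpbp, Zpbp2 and Dpy19l2.

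The comparison of Sa with Con asks how levels after busulfan and saline differed from those in untreated testis. Treatment and a possible batch cannot be told apart in it. Mean levels in Sa were 7.37% (Izumo1) to 26.3% (Zpbp2) of the Con mean. All 10 genes were lower in every Sa library than in every Con library, a pattern that 31.3% of all tested genes shared. With limma 3.58.1 and Benjamini-Hochberg adjustment over all tested genes, 5 of 10 fell, where 19.2% of all genes were called lower and 52.0% higher. Izumo1 differed by −3.57 ± 0.94 (log2 of FPKM + 1, ± SE; limma adjusted p = 0.0065). Acrv1 differed by −3.10 ± 0.94 (adjusted p = 0.013), Spaca3 by −3.10 ± 0.92 (0.0118), Spam1 by −2.72 ± 0.76 (0.00881) and Spaca1 by −2.71 ± 0.69 (0.00534). The other 5 did not pass, at −1.92 (Zpbp2, adjusted p = 0.126) to −2.18 (Acrbp, 0.0882), with Zpbp at −1.95 (0.0528), Dpy19l2 at −2.04 (0.0865) and Acr at −2.12 (0.0904). Their 3 Sa and 3 Con libraries are the same in every fit, and the spread is estimated over all 4 groups: without IMA10 replicate 3 the differences are unchanged and all 10 fell (adjusted p = 3.94e-05 for Izumo1 and 0.00357 for Zpbp2), where 30.0% of all genes were called lower. The count was also 9 of 10 without IMA10 replicate 1, where 3694 of 15430 genes were called lower. It was 10 of 10 both in a fit of Sa and Con alone (4765 of 15472 genes lower) and after median-of-ratios scaling (6069 of 15472). That scaling moved the median of all genes by −0.63, from a log2 difference of 0.60, and relative to the all-gene median the median of the 10 genes was −3.05 as deposited and −3.19 after scaling.

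IMC against Con asks the same of mice that had received microbiota of water-treated donors. Mean levels in IMC were 5.71% (Izumo1) to 23.9% (Zpbp2) of the Con mean, and all 10 genes were lower in every IMC library than in every Con library, as were 33.2% of all tested genes. In limma 6 of 10 fell, where 23.3% of all genes were called lower: the same 5 as in Sa and Zpbp (−2.16 ± 0.82, adjusted p = 0.0349). Izumo1 differed by −3.77 ± 0.94 (adjusted p = 0.00466). Acr (−2.49, adjusted p = 0.0514), Acrbp (−2.43, 0.0607), Dpy19l2 (−2.18, 0.0677) and Zpbp2 (−2.21, 0.0824) did not pass. Without IMA10 replicate 3 all 10 fell, where 32.2% of all genes were called lower. The count was also 10 of 10 without IMA10 replicate 1, in a fit of IMC and Con alone and after median-of-ratios scaling. Of all genes, 4341 of 15430, 5046 of 15472 and 6302 of 15472 were called lower in these settings.

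IMA10 against Con gave the widest spread. Mean levels in IMA10 ran from 14.6% (Izumo1) to 41.3% (Dpy19l2) of the Con mean, with an SD above the mean for every gene. In limma all 10 fell, with adjusted p of 0.00531 (Izumo1) to 0.0361 (Dpy19l2), where 23.9% of all genes were called lower. Spaca3 differed by −3.65 ± 0.92 (adjusted p = 0.0058) and Zpbp by −2.33 ± 0.82 (0.0272). Only Acrv1, Spaca1, Spaca3, Izumo1 and Spam1, 5 of 10, had no overlap with the Con libraries, against 18.1% of all genes, and the 5 others overlapped through replicate 3. Without that library all 10 fell, with larger differences of −3.49 (Zpbp) to −5.12 (Izumo1), where 35.0% of all genes were called lower. The count dropped to 5 of 10 without IMA10 replicate 1, without IMA10 replicate 2, without any 1 of the Con libraries, and in a fit of IMA10 and Con alone. The count over all genes dropped too, from 3694 of 15472 to 2209 of 15430 without IMA10 replicate 1 and 2178 of 15415 without replicate 2. It was 2251 to 2360 of 15199 to 15207 without a Con library, and 1834 of 15472 in the fit of IMA10 and Con alone.

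**Figure D2:**
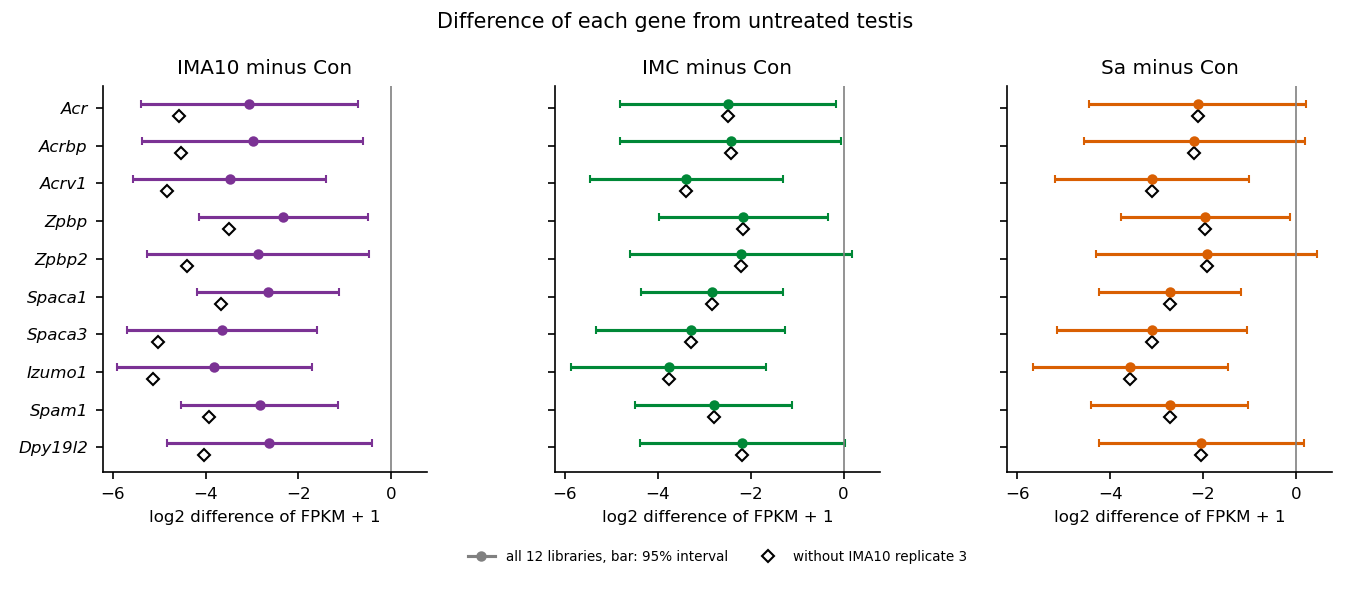
Difference of each gene from Con on the log2(FPKM + 1) scale for IMA10, IMC and Sa, as limma's estimate with its 95% interval over all 12 libraries (filled points) and without IMA10 replicate 3 (open diamonds). The estimates of IMC and Sa do not move without that library, and those of IMA10 do, to −5.12 for Izumo1.

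The 3 comparisons among busulfan groups ask whether the microbiota of either kind of donor went with other levels of these genes. They share libraries with each other and with the comparisons above. In IMC against Sa, 0 of 10 passed, where 0% of all tested genes did: limma called 0 genes, with 134 at an unadjusted p under 0.05. All 10 differences were negative, from −0.08 (Spam1; 95% interval −1.77 to 1.62) to −0.38 (Acr; −2.71 to 1.96), and the library ranges of every gene overlapped. Leaving out IMA10 replicate 3 gave 0 of 10 and 0% as well.

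In IMA10 against Sa, 0 of 10 passed and 0% of all genes, with 928 genes at an unadjusted p under 0.05. The differences ran from −0.95 (Zpbp2; 95% interval −3.33 to 1.43) to 0.06 (Spaca1; −1.48 to 1.59), and all library ranges overlapped. This outcome rests on IMA10 replicate 3. Without it all 10 genes were lower in IMA10 than in Sa, by −0.95 (Spaca1, adjusted p = 0.0386) to −2.48 (Zpbp2, 0.0136), where 24.7% of all genes were called lower. Acr then differed by −2.46 and Acrbp by −2.34. IMA10 replicates 1 and 2 lay below all 3 Sa libraries for each of the 10 genes. How many of all tested genes did so was not counted, so the pattern cannot be called particular to the 10.

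In IMA10 against IMC, 0 of 10 passed and 0% of all genes, with 328 genes at an unadjusted p under 0.05. The differences ran from −0.67 (Zpbp2) to 0.18 (Spaca1). Without IMA10 replicate 3 all were negative, from −0.83 (Spaca1) to −2.19 (Zpbp2), but none passed (adjusted p = 0.0731 to 0.136), and 2 genes, or 0.0130% of those tested, were called lower. The intervals of these comparisons are wide, and a difference that did not pass does not show that the groups are alike.

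The genes did not fall by equal shares, and they parted in the same way in most libraries. Acr, Acrbp, Zpbp, Zpbp2 and Dpy19l2 kept a larger share of their Con mean than Acrv1, Spaca1, Spaca3, Izumo1 and Spam1, with no overlap, in all 6 IMC and Sa libraries and in IMA10 replicate 3. This division was made after the values had been seen and is given as a description with no test. In Sa replicate 1 the first 5 stood at 28.5 to 31.5% of Con and the others at 13.2 to 18.7%. In IMC replicate 2 they stood at 26.1 to 31.6% and 6.36 to 14.5%, and in IMA10 replicate 3 at 99.1 to 114% and 42.7 to 63.4%. In IMA10 replicate 3 the first 5 thus stood near or above the Con mean and the others below it. In IMA10 replicates 1 and 2 the ranges overlapped through Spaca1, at 5.11% and 9.42%, although the medians kept the same order, 2.15% over 1.5% and 8.0% over 4.87%.

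**Figure D3:**
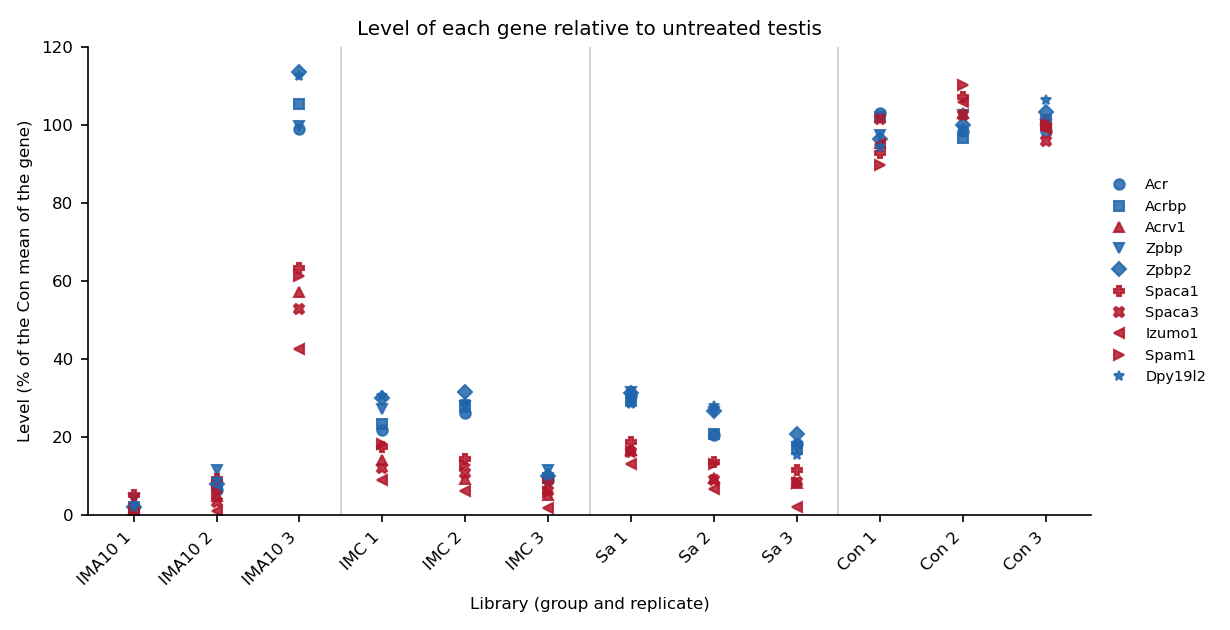
Level of each gene in each library as a percentage of its own Con mean, with Acr, Acrbp, Zpbp, Zpbp2 and Dpy19l2 in blue and Acrv1, Spaca1, Spaca3, Izumo1 and Spam1 in red. Blue lies above red with no overlap in the IMC and Sa libraries and in IMA10 replicate 3. The 2 colours mix in Con replicates 1 and 3. In Con replicate 2 red lies just above blue, at 102.63 to 110.39% against 96.68 to 102.59%.

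The ratio to Acrbp within a library, set beside that in Con, restates the same division from the same values, apart from Spaca1. The ratio of Acrv1 to Acrbp was 0.148 to 0.189 in IMA10, 0.0917 to 0.164 in IMC and 0.125 to 0.156 in Sa, against 0.255 to 0.290 in Con. The ratio of Spaca3 to Acrbp was 0.102 to 0.148 in IMA10, 0.0912 to 0.151 in IMC and 0.102 to 0.128 in Sa, against 0.219 to 0.246 in Con. All 9 busulfan libraries lay below Con for both ratios, IMA10 replicate 3 included at 0.148 for Acrv1 and 0.117 for Spaca3. For Izumo1 the ratio was at most 0.0342 in IMA10, 0.0322 in IMC and 0.0381 in Sa, against at least 0.0785 in Con. For Spam1 it was at most 0.0469, 0.0476 and 0.0384 in IMA10, IMC and Sa, against at least 0.0533 in Con. The ratio of Dpy19l2 to Acrbp overlapped between groups, at 0.134 to 0.158 in IMA10, 0.141 to 0.177 in IMC and 0.123 to 0.181 in Sa, against 0.125 to 0.142 in Con. These ratios were not tested.

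**Figure D4:**
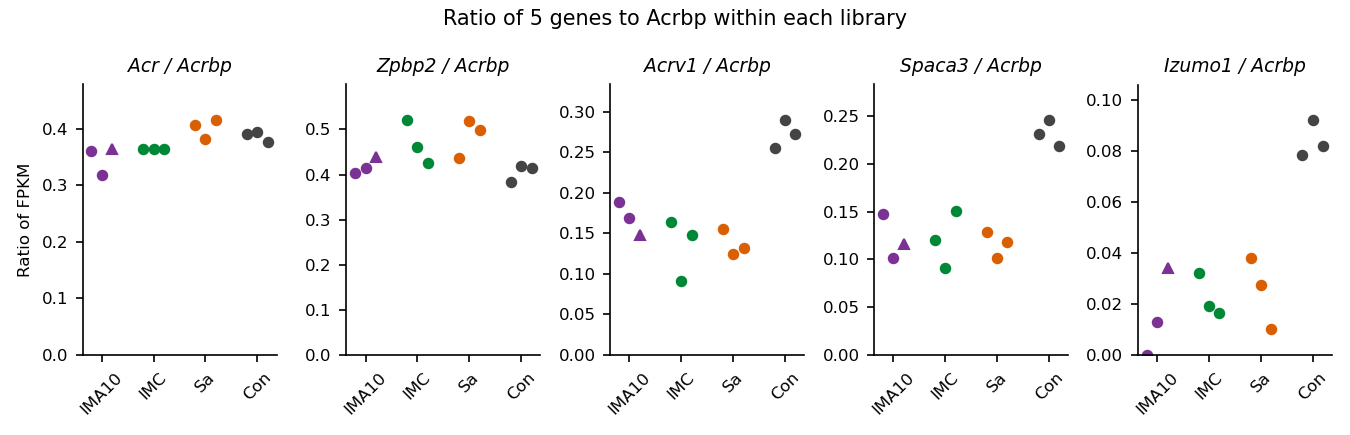
Ratio of the FPKM of Acr, Zpbp2, Acrv1, Spaca3 and Izumo1 to that of Acrbp in each library, with IMA10 replicate 3 as a triangle and each axis starting at 0. The busulfan libraries lie below Con for Acrv1, Spaca3 and Izumo1. For Zpbp2 they lie at 0.403 to 0.522 and Con at 0.384 to 0.420.

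Lists of 12 genes that mark stages of germ cell development were set beside the median of the 10 genes. The median level of the pachytene list was 2.24 to 98.0% of Con in IMA10, 10.4 to 27.5% in IMC and 17.7 to 33.4% in Sa. The median of the 10 genes was 2.08 to 81.2% in IMA10, 8.89 to 20.3% in IMC and 13.6 to 23.6% in Sa. That of the round spermatid list was 1.00 to 43.7%, 4.30 to 8.82% and 6.71 to 14.4% in the same groups, and that of the elongating spermatid list 0.13 to 9.98%, 0.53 to 1.24% and 0.82 to 5.71%. In each of the 9 busulfan libraries the median of the 10 genes lay below the pachytene and above the round spermatid median, but single genes did not all do so: in IMA10 replicate 3, Acr, Acrbp, Zpbp, Zpbp2 and Dpy19l2 lay above the pachytene median and Izumo1, at 42.7%, below the round spermatid median. In Sa against Con the limma counts of fallen genes were 4 of 12 for pachytene (11 without IMA10 replicate 3) and 12 of 12 for both spermatid lists, with and without that library, where 19.2% of all genes were called lower (30.0% without it). The median of the early prophase list was 63.0 to 127% of Con in Sa. Its single genes spread wider, with Dmc1 at 13.2 FPKM in Sa and 4.13 in Con, and Syce1 at 68.7 and 232. In Sa 0 of 12 fell (1 without IMA10 replicate 3) and 3 rose (4 without it). Of all genes, 52.0% were called higher (8583 of 15412 without it).

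**Figure D5:**
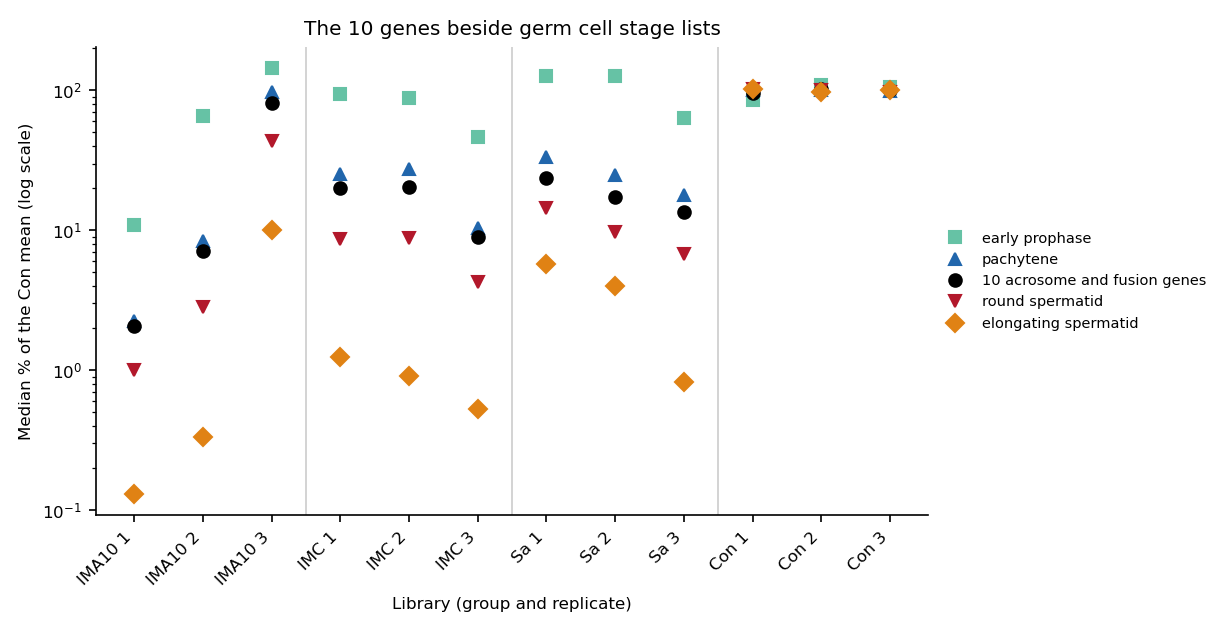
Median level in each library, as a percentage of the Con mean on a log scale, of the 10 genes and of 4 lists of germ cell stage markers. The median of the 10 genes (black) lies between the pachytene and round spermatid medians in all 9 busulfan libraries.

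Other genes of the pathway were taken from lists by known role. Of 18 genes that build or attach the acrosome, 10 fell in Sa against Con and 1 rose, where 19.2% of all genes were called lower and 52.0% higher, with a median log2 difference of −1.15 over the list and 0.60 over all genes tested. Without IMA10 replicate 3, 15 fell and 1 rose, where 30.0% of all genes were called lower and 8583 of 15412 higher. The largest difference was that of Ccin, which encodes calicin of the sperm head cytoskeleton, at 4.64 ± 2.57 FPKM in Sa and 82.5 ± 3.72 FPKM in Con (−4.0 ± 0.83, limma adjusted p = 0.00174). Actl9, an actin-like gene of the acrosome region, stood at 22.1 ± 9.86 FPKM in Sa and 302 ± 7.85 FPKM in Con (−3.81 ± 1.08, 0.00955). Spink2, a protease inhibitor gene and the most abundant of the list, stood at 187 ± 51.7 FPKM in Sa and 793 ± 12.5 FPKM in Con (−2.11, adjusted p = 0.0752; 0.000932 without IMA10 replicate 3). The gene that rose, named after its values had been seen, was Vps54, at 8.35 ± 1.37 FPKM in Sa and 3.52 ± 0.42 FPKM in Con. After median-of-ratios scaling no gene of the list rose and 17 fell, where 5847 of all 15472 genes were called higher and 6069 lower.

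Of 18 further genes for acrosomal cargo, 14 fell in Sa against Con, 14 in IMC and 17 in IMA10, where 19.2%, 23.3% and 23.9% of all genes were called lower. Without IMA10 replicate 3, 18 fell in each, where 30.0%, 32.2% and 35.0% of all genes were called lower. The median in Sa was −2.91. Spaca9 stood at 13.5 ± 7.80 FPKM in Sa and 215 ± 12.6 FPKM in Con (−4.05 ± 1.01, limma adjusted p = 0.00481). Spaca7 stood at 11.5 ± 3.91 FPKM in Sa and 117 ± 8.82 FPKM in Con (−3.29 ± 0.85, 0.0057). Dkkl1, an acrosomal glycoprotein gene and the most abundant of the list, stood at 278 ± 87.9 FPKM in Sa and 1172 ± 29.9 FPKM in Con and did not pass (−2.12, adjusted p = 0.0985).

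Of 11 further sperm genes for egg binding, fusion or egg activation, 10 fell in Sa against Con, 10 in IMC and 10 in IMA10, where 19.2%, 23.3% and 23.9% of all genes were called lower. Without IMA10 replicate 3, 11 fell in each, where 30.0%, 32.2% and 35.0% were. The median in Sa was −3.01. Plcz1, the sperm phospholipase that starts calcium oscillations in the egg, stood at 4.55 ± 1.91 FPKM in Sa and 77.3 ± 6.48 FPKM in Con (−3.88 ± 0.81, limma adjusted p = 0.0017). Izumo2, a paralog of Izumo1, stood at 10.2 ± 3.99 FPKM in Sa and 149 ± 4.52 FPKM in Con (−3.80 ± 0.94, 0.00454). Llcfc1, needed in mice for fusion, stood at 39.6 ± 16.4 FPKM in Sa and 478 ± 4.72 FPKM in Con (−3.63 ± 0.98, 0.00727). Tmem81, chosen after its values had been seen, was listed at 0 in all Sa and IMC libraries and stood at 6.56 to 8.61 FPKM in Con.

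Genes for the egg side and relatives of the 10 genes that serve in somatic tissue are given beside them. The JUNO gene Izumo1r and the zona pellucida genes Zp1, Zp2 and Zp3 stayed under 1 FPKM in all libraries and were not tested. The tetraspanin genes Cd9 and Cd81, which are used by eggs in fusion and by many somatic cells, both rose in Sa. Cd81 stood at 361 ± 65.0 FPKM in Sa and 23.7 ± 1.70 FPKM in Con (3.86 ± 0.52, limma adjusted p = 0.000353), and Cd9 at 18.6 ± 3.15 and 3.68 ± 0.42 FPKM (2.05 ± 0.28, 0.000353). Of 7 tested relatives, 5 rose, with and without IMA10 replicate 3. Of all genes, 52.0% were called higher with that library and 8583 of 15412 without it. After median-of-ratios scaling 5 rose and 1 fell, where 5847 of all 15472 genes were called higher and 6069 lower. Lyz2, a macrophage lysozyme gene related to Spaca3, stood at 97.2 ± 25.4 FPKM in Sa and 9.37 ± 1.77 FPKM in Con (3.22 ± 0.45, 0.000358). Dpy19l3, a relative of Dpy19l2, stood at 6.51 ± 0.74 FPKM in Sa and 0.69 ± 0.03 FPKM in Con (2.15 ± 0.38, 0.000676), while Dpy19l1 stood at 19.4 ± 0.46 and 19.4 ± 0.61 FPKM (0.00, 0.984; the median of all genes was 0.60). The summed level of the macrophage list stood at 228 to 313 FPKM in Sa and 31.9 to 39.2 FPKM in Con, and its part in the Lyz2 difference was not tested.

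Of 8 transcriptional regulators of spermatids, 3 fell in Sa against Con, 5 in IMC and 6 in IMA10, where 19.2%, 23.3% and 23.9% of all genes were called lower. Without IMA10 replicate 3, 6 fell in Sa, 6 in IMC and 7 in IMA10, where 30.0%, 32.2% and 35.0% were. Fhl5, a coactivator of CREM, stood at 10.5 ± 5.09 FPKM in Sa and 133 ± 14.8 FPKM in Con (−3.64 ± 0.81, limma adjusted p = 0.00246). Sox30 stood at 15.8 ± 5.71 FPKM in Sa and 102 ± 4.82 FPKM in Con (−2.68 ± 0.89, 0.0201). Rfx2, the most abundant of the list, stood at 42.4 ± 13.7 FPKM in Sa and 166 ± 6.51 FPKM in Con (−1.99, 0.0884; 0.0011 without IMA10 replicate 3). Crem itself stood at 17.4 ± 3.96 FPKM in Sa and 72.7 ± 3.38 FPKM in Con (−2.02 ± 0.73, 0.0291).

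The pattern of the 10 genes over libraries was shared by many others. Between pairs of the 10, Pearson r of log2(FPKM + 1) over 12 libraries was 0.922 to 0.999 with a median of 0.980, and 0.890 to 0.996 over the 8 busulfan libraries without IMA10 replicate 3. Among 7960 other genes with a symbol and a Con mean of at least 5 FPKM, Crem was the most like the mean of the 10 over 12 libraries (r = 0.9992), followed by Nsun7 (0.9990), Plcd4 (0.9988), Fsip1 (0.9988) and Meig1 (0.9986). Over the 9 busulfan libraries the most alike were Iqch (0.9992), 1700001L19Rik (0.9990), Deup1 (0.9990), Mok (0.9988) and Cfap298 (0.9986). An r above 0.95 was reached by 2247 genes over 12 libraries and by 2027 over 9. These libraries share treatment, tissue make-up and unknown depth, and the values are a description.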

How the data were processed

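RNA from 12 testis libraries in 4 groups of 3 was measured by sequencing, and group and replicate number were taken from the labels. The deposited table holds the authors' FPKM values with 2 decimals, per the file headers, and the aligner, counting program, genome build and annotation are each not given in the sources used here. Depth is unknown: low values showed no steps of whole reads, so no counting interval is given. Of 22221 rows, 20288 carry an NCBI Gene ID, and 20141 of these were matched to a symbol through a RefSeq gene table (GRCm38.p6). That table, whose build may differ from the authors', also gave chromosomes, overlapping genes and promoters. No library column equals another, and no row has the same values as any of the 10 genes.

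The 15472 rows that reached 1 FPKM in 3 or more libraries were analysed as log2(FPKM + 1), so differences understate the change of low genes. One linear model over all 12 libraries, with a mean for each group and a trended variance prior, was fitted in limma 3.58.1 under R 4.3.3, and p-values were adjusted by Benjamini-Hochberg over all rows. An adjusted p under 0.05 is called risen or fallen. Nothing in the labels says that the 3 libraries of a group are separate animals, so a p-value reflects the spread among these samples alone, and that spread may be technical. The procedure was tested on simulated data. FPKM is relative to each library's total, so the loss of abundant transcripts raises all others.

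The 10 genes and the lists were chosen with earlier results of these data known. Besides the 10, genes named from a list by rule are its 2 tested genes with the largest difference in Sa against Con and the one most abundant in Con. No genes are named from the pachytene, spermatid stage, Sertoli, Leydig, macrophage, myoid and endothelial marker lists. A spermatogonia list was also made. Its median was 83.6 to 205% of Con in IMA10, 148 to 377% in IMC and 259 to 484% in Sa. The genes most alike were the 5 highest by Pearson r with the mean of the 10. Alternatives were median-of-ratios scaling, quantile normalization, a filter of 5 FPKM or none, a pseudocount of 0.1, a block for the replicate number, models restricted to the compared groups, and leaving out each library.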

Additional observations from a re-analysis of the deposited data

How the results depend on the processing

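The direction against Con held for every gene under every alternative: 600 of 600 differences of the 10 genes from Con were negative. Which of them passed depended on the setting. After median-of-ratios scaling 10 of 10 fell in Sa and 10 in IMC, and over all genes 6069 fell in Sa, 6302 in IMC and 5817 in IMA10 against Con. Quantile normalization gave 4514 genes lower in Sa. Fits of only the groups compared gave 10 of 10 in Sa with 4765 genes lower over all, 10 of 10 in IMC with 5046 genes lower, and 5 of 10 in IMA10 with 1834 genes lower. A fit of only the groups compared takes its spread from those libraries, and for the scalings the cause was not tested.

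Leaving out 1 library at a time gave 5 to 10 of the 10 genes lower in Sa (1954 to 4623 of all genes), 5 to 10 in IMC (2247 to 4964) and 5 to 10 in IMA10 (2178 to 5401), each against Con. In IMA10 against Sa it gave 0 to 10 of the 10 genes, 0 to 3801 of all genes lower and 0 to 1138 higher, with all but 1 of these calls made without IMA10 replicate 3 (1 gene was lower without Sa replicate 3), and in IMA10 against IMC 0 to 2 genes lower. The log2 differences of IMC against Sa ranged over −0.67 to 0.0813 for Acr, −0.54 to 0.22 for Acrbp, −0.60 to 0.0605 for Acrv1, −0.43 to 0.17 for Zpbp, −0.56 to 0.24 for Zpbp2, −0.32 to 0.14 for Spaca1, −0.37 to 0.0734 for Spaca3, −0.68 to 0.22 for Izumo1, −0.35 to 0.27 for Spam1, −0.41 to 0.34 for Dpy19l2. Those of IMA10 against Sa ranged over −2.46 to 0.19 for Acr, −2.34 to 0.40 for Acrbp, −1.73 to 0.62 for Acrv1, −1.54 to 0.50 for Zpbp, −2.48 to 0.24 for Zpbp2, −0.95 to 0.75 for Spaca1, −1.92 to 0.37 for Spaca3, −1.56 to 0.56 for Izumo1, −1.20 to 0.66 for Spam1, −1.99 to 0.50 for Dpy19l2, the lowest always without IMA10 replicate 3 and the highest without replicate 1. Those of IMA10 against IMC ranged over −2.08 to 0.56 for Acr, −2.09 to 0.65 for Acrbp, −1.44 to 0.91 for Acrv1, −1.33 to 0.71 for Zpbp, −2.19 to 0.52 for Zpbp2, −0.83 to 0.87 for Spaca1, −1.72 to 0.57 for Spaca3, −1.35 to 0.77 for Izumo1, −1.12 to 0.73 for Spam1, −1.85 to 0.64 for Dpy19l2, with the same libraries at either end.

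Some small differences among the busulfan groups changed sign with scaling. Spam1 stood at 0.0357 in IMC against Sa after quantile normalization. In IMA10 against Sa it stood at 0.0794 after median-of-ratios scaling and 0.30 after quantile normalization, where Izumo1 stood at 0.0828. In IMA10 against IMC, Acrv1, Izumo1 and Spam1 stood at 0.0447, 0.10 and 0.0924 after median-of-ratios scaling, and at 0.11, 0.17 and 0.26 after quantile normalization, where Zpbp stood at 0.0457. A pseudocount of 0.1 gave 1 gene higher in IMC against Sa and 1 in IMA10 against Sa. With no filter 1 gene was higher in IMC against Sa, and 1 higher and 1 lower in IMA10 against Sa. None of these genes is among the 10.

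The replicate numbers showed no clear pairing of the libraries: deviations of same-numbered libraries correlated at r from −0.765 to 0.546, with 5 of 18 pairs over 0.1. Libraries with different numbers also correlated, as IMA10 replicate 1 and IMC replicate 3 did at 0.756, so these values cannot exclude a pairing. With the replicate number as a block, 5 of the 10 genes fell in Sa, 5 in IMC and 8 in IMA10 against Con. Over all 15472 genes 2481, 2917 and 2972 were called lower in the same comparisons. Among the busulfan groups 0 of the 10 passed, and 0 of all genes.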

Other observations

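Spaca1 stood high relative to Acrbp in IMA10 replicates 1 and 2. Its ratio to Acrbp was 0.488, 0.248 and 0.125 in IMA10 replicates 1, 2 and 3, 0.108 to 0.192 in IMC and 0.133 to 0.141 in Sa, against 0.188 to 0.230 in Con. In IMA10 replicate 1 Spaca1 had the largest share of its Con mean, 5.11%, followed by Zpbp at 4.22%. Acrbp kept 2.17% there and Izumo1 was listed at 0. In IMA10 replicate 2 Zpbp had the largest share, 11.7%, ahead of Spaca1 at 9.42%. The ratio of Zpbp to Zpbp2 was likewise 0.535, 0.399 and 0.239 in IMA10 replicates 1, 2 and 3, 0.243 to 0.319 in IMC and 0.229 to 0.274 in Sa, against 0.263 to 0.280 in Con. These ratios were picked after the values had been seen and were not tested.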
